A study of Homo sapiens with 9 samples.

Results

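Laminin chain genes were examined in H1975, an epithelial lung adenocarcinoma cell line with mutant EGFR. The 8 genes LAMA1, LAMA3, LAMA4, LAMA5, LAMB1, LAMB2, LAMB3 and LAMC1 were chosen by name from the 61544 genes of the deposited count tables. The chain genes LAMA2, LAMB4 and LAMC3 are given beside them because a laminin cannot be put together without its partner chains. The study asked which transcripts depend on GRP78, the endoplasmic reticulum chaperone encoded by HSPA5, being able to enter the nucleus. All cells first received si78, which silences the cell's own GRP78 by pairing with the 3′ untranslated region that the plasmids lack, for 24 h, and then a plasmid for 48 h. The plasmid was the empty vector (Vector), FLAG-tagged wild-type GRP78 (WT, F-78(WT)), or FLAG-tagged GRP78 whose nuclear localization signal was disabled by changing 3 lysines to alanine (NLS Mut, F-78(NLS Mut)). There were 3 libraries in each of the 3 groups, all of 1 cell line, and every group carried the knockdown. The labels do not say whether libraries of a group came from separate cultures, so p-values measure only the spread among these libraries, which may be technical.

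Laminins are large cross-shaped glycoproteins of the basement membrane, each a trimer of 1 α, 1 β and 1 γ chain joined along a coiled coil. Epithelial cells secrete them on their basal side, where the α chain binds integrins, dystroglycan and other receptors, and the short arms link into a sheet with nidogen, perlecan and collagen IV. The α5 chain is the widespread chain of adult epithelial basement membranes, and laminins with the α3 chain help to anchor stratified epithelia through hemidesmosomes. Lung epithelium and its carcinomas are known to make both kinds. Assembly takes place in the endoplasmic reticulum, which is also where most GRP78 resides.

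The libraries held between 17671055 and 27476298 reads counted on genes, which were 69.3% to 72.4% of all reads tallied in a library. HSPA5 was at 359, 383 and 391 CPM (counts scaled to a common library total) in the Vector libraries, 5031, 5814 and 6145 in WT, and 4962, 5156 and 4765 in NLS Mut. Both groups given a GRP78 plasmid thus carried far more of this transcript than Vector, which received the empty plasmid. The counts do not separate plasmid from endogenous HSPA5. All 6 epithelial markers (EPCAM, CDH1, KRT7, KRT8, KRT18 and KRT19) were at 1 CPM or more in every library and summed to 4357 to 5107 CPM. The 6 fibroblast markers, for cells that also make laminins, summed to 6.98 to 11.8 CPM, and DCN was at 0 in all libraries. Endothelial markers summed to 5.87 to 8.87 CPM and leukocyte markers to 5.02 to 9.54 CPM, with CD3E and LYZ at 0.

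Since the study examined E-boxes, the motif CANNTG that basic helix-loop-helix factors bind, the 250 bases before the transcription start are shown for the pair of chains that differed between groups, read from RefSeq on GRCh38.p14 and written 5′ to 3′ on the gene's strand. The window of LAMA5, chr20:62367313-62367562 on the minus strand, was 82.8% G or C and held 1 E-box, CAGGTG, in capitals, which starts 201 bases before the start site. The window of LAMB2, chr3:49133051-49133300 on the minus strand, was 58.4% G or C and held none, so it is all in lower case.
LAMA5: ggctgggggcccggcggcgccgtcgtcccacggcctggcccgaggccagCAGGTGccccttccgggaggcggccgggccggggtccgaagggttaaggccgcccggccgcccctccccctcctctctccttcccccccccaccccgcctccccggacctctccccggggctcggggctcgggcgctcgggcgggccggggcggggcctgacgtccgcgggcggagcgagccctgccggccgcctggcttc
LAMB2: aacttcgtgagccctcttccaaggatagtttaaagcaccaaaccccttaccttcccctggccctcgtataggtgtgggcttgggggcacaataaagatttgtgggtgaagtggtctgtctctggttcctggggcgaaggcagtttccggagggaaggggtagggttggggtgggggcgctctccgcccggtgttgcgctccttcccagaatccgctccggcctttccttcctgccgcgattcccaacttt
Of all 35116 RefSeq windows of this length 61.8% held the motif, which reads as CANNTG on either strand. RefSeq windows were matched for 7 of the 8 genes, LAMA1 being the exception, and 5 of their 9 windows had an E-box, those of LAMA3, LAMA5 and all 3 windows of LAMB3. Those of LAMA4, LAMB1, LAMB2 and LAMC1 had none. A match of letters is a description of sequence and not of a bound site.

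Chain levels were compared as CPM per kilobase of exons, since the genes differ in length. LAMB3 was the most abundant chain transcript at 137 CPM per kilobase over the 9 libraries (range 129 to 153). LAMB2 followed at 67.6 (range 56.1 to 75.3) and LAMC1, the γ chain of most laminins, at 63.7 (range 58.6 to 71.8). LAMB2 and LAMC1 overlapped, LAMB2 being the higher of the pair in 6 of 9 libraries. LAMA5 was at 17.4 CPM per kilobase (range 13.1 to 20.1) and LAMA3 at 11.6 (range 10.8 to 12.6), with no overlap between them. LAMB1 lay well below these at 2.33 CPM per kilobase (range 1.83 to 2.68), and the next was LAMA2 at 0.0949 CPM per kilobase, LAMA4 at 0.0760, LAMA1 at 0.0442, LAMC3 at 0.0416 and LAMB4 at 0.0332. The ranges of neighbours among these overlapped, and no library had any of them above 0.2. The α chains were scarcer as transcripts than the β chains: in the Vector libraries they summed to 30.6 ± 1.02 CPM per kilobase (SD, n = 3), against 221 ± 8.78 for the β chains.

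**Figure D1:**
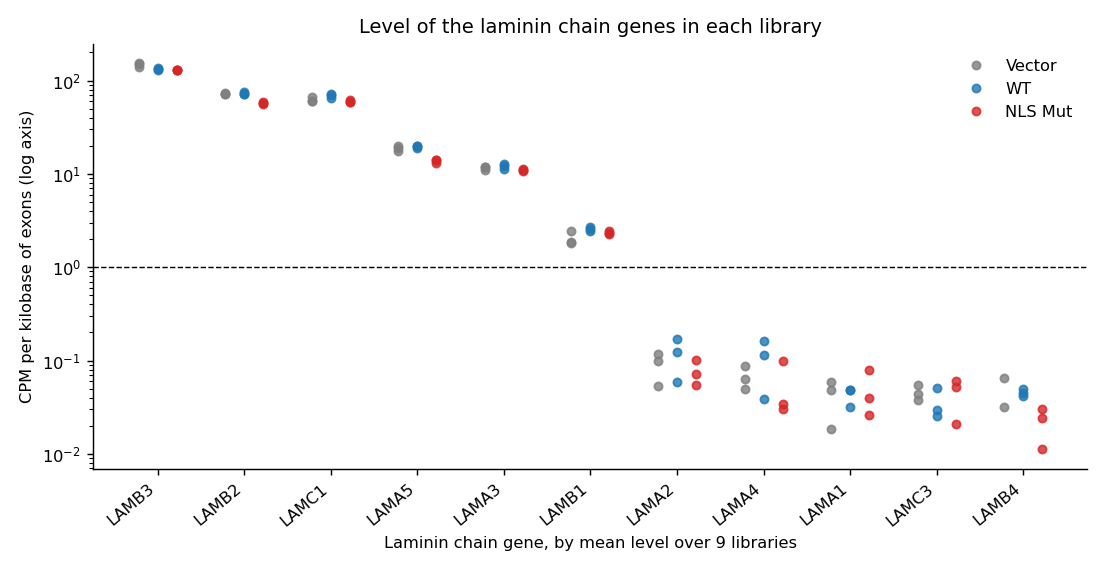
Level of 11 laminin chain genes in each library, in CPM per kilobase of exons on a log axis, with genes ordered by their mean over 9 libraries, 1 point per library coloured by group, and a dashed line at 1 CPM per kilobase. The 6 genes to the left lie between 1.83 and 153 and the 5 genes to the right below 0.2; 1 Vector library with 0 counts of LAMB4 is not drawn.

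The order depends on length for 1 chain. LAMA3 makes a short and a long α3 form from separate starts, and its deposited count pools both. The RefSeq start matched here lies inside the gene, at the short form. Per kilobase of the short transcript LAMA3-201 (5.67 kb), instead of the 14.7 kb of all LAMA3 exons, its level was 29.9 CPM per kilobase (range 28.0 to 32.7), above LAMA5. The comparison of LAMA3 with LAMA5 in level therefore turns on the isoform, which gene counts do not give.

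The trimers considered did not include any with LAMB3, so the list below does not cover that chain. Of 13 trimers considered, 4 had all chains at 1 CPM per kilobase or more in every library. They were laminin-311, laminin-321, laminin-511 and laminin-521. For laminin-521 the scarcest transcript was LAMA5, for laminin-321 it was LAMA3, and for laminin-311 and laminin-511 it was LAMB1. The 9 trimers short of a chain were those with α1 or α2 or α4 (laminin-111, laminin-121, laminin-211, laminin-221, laminin-213, laminin-411, laminin-421 and laminin-423) and the γ3 form laminin-523. Raising the minimum to 2 CPM per kilobase left 2 trimers, since LAMB1 fell below it in Vector libraries 2 and 3 (1.86 and 1.83). LAMB1 was at 2.29 or more in all WT and NLS Mut libraries. This also rests on the length used, as LAMB1 averaged 3.29 per kilobase of its longest coding transcript. These are statements about transcripts, and secreted trimers were not measured in these data.

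LAMA5 and LAMB2 carried the difference between the groups. Both were higher in WT than in NLS Mut and both were lower in NLS Mut than in Vector, whereas the estimates for WT against Vector lay near 0, with the intervals given below. Of the 8 genes, 2 were called higher in WT against NLS Mut and none lower, where 0.300% of all 18653 tested genes were called higher and 0.204% lower. In NLS Mut against Vector, 2 were called lower and none higher, where 0.499% of all genes were called lower and 0.295% higher. In WT against Vector none of the 8 was called, where 0.214% of all genes were called higher and 0.343% lower. Calls are at an adjusted p under 0.05 in edgeR's quasi-likelihood test, adjusted by Benjamini-Hochberg over all genes tested. Each group of libraries serves in 2 of the 3 comparisons, so the comparisons are not independent of each other. The 4 markers of alveolar type 2 cells (NKX2-1, NAPSA, SFTPB and SFTPC) summed to 29.2 to 32.9 CPM in Vector, 29.9 to 34.2 in WT and 23.8 to 26.6 in NLS Mut. In this sum NLS Mut also lay below the other groups. Of the 4 markers, 2 reached 1 CPM in every library, and NKX2-1 alone was at 21.5 to 31.6 CPM. The epithelial markers summed to 4448 to 5107, 4771 to 4846 and 4357 to 4557 CPM. The fibroblast markers, 1 of 6 of which reached 1 CPM throughout, summed to 7.18 to 9.65, 9.54 to 11.8 and 6.98 to 8.57 CPM. In the epithelial and fibroblast sums NLS Mut overlapped Vector, but every NLS Mut library lay below every WT library. The part of these markers in the result was not tested. In bulk RNA, fewer cells making a transcript and less of it per cell cannot be told apart.

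Among the α chains, LAMA5 (ENSG00000130702) encodes α5, the chain of laminin-511 and laminin-521, and spans chr20:62307955-62367312 on the minus strand with 80 exons in its longest coding transcript. It was at 250, 270 and 287 CPM in Vector, 272, 281 and 282 in WT, and 201, 187 and 203 in NLS Mut. All NLS Mut libraries were thus below every other library, while Vector and WT overlapped. In WT against NLS Mut its log2 fold change was 0.50 (SE 0.06, 95% interval 0.38 to 0.62, edgeR adjusted p = 2.3e-05), a level 41.5% higher in WT. In NLS Mut against Vector it was -0.45 (SE 0.06, -0.57 to -0.33, edgeR adjusted p = 6.5e-05). In WT against Vector it was 0.05, with an interval of -0.07 to 0.17 (edgeR adjusted p = 0.82). The 3′ end of LAMA5 overlaps ADRM1, a proteasome subunit gene on the opposite strand, by 908 bases. In each library 19.1% to 28.0% of the reads over LAMA5, which can include reads of ADRM1, were left out of its unstranded count. With the counts of both strands added, which takes in some reads of ADRM1, the log2 fold changes were 0.41 and -0.34 in these comparisons and both were still called. ADRM1, whose unstranded count also leaves out reads that lie over both genes, was at 27.2 CPM with a log2 fold change of -0.02 in WT against NLS Mut.

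LAMA3 (ENSG00000053747), which encodes the epithelial chain α3, was at 172, 174 and 162 CPM in Vector, 186, 167 and 179 in WT, and 166, 159 and 161 in NLS Mut. The WT libraries were all above the NLS Mut libraries, but by little: the log2 fold change was 0.13 (SE 0.06, interval 0.01 to 0.25, edgeR adjusted p = 0.40). Against Vector the values were 0.06 in WT and -0.07 in NLS Mut, and neither was called.

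LAMA1 and LAMA4, the α chains of embryonic and of endothelial and muscle basement membranes, were close to the limit of counting. LAMA1 had 8 to 22 reads in a library and LAMA4 had 7 to 39. The LAMA1 levels were 0.924, 0.760 and 0.296 CPM in Vector, 0.769, 0.501 and 0.771 in WT, and 0.420, 0.628 and 1.25 in NLS Mut. The LAMA4 levels were 1.02, 0.579 and 0.740 CPM in Vector, 0.452, 1.35 and 1.88 in WT, and 1.15, 0.353 and 0.397 in NLS Mut. The groups overlapped for both genes, and the spread within a group was as wide as any difference between groups. The interval for WT against NLS Mut was -1.47 to 1.15 for LAMA1 and -0.29 to 2.21 for LAMA4 on the log2 scale, so a difference of the size seen for LAMA5 was not detectable at this depth. LAMA2, the muscle α chain, was at 0.554 to 1.78 CPM and was not called in any comparison.

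Among the β chains, LAMB2 (ENSG00000172037) encodes β2, which pairs with α5 or α3 and γ1, and spans chr3:49121114-49133118 on the minus strand. It was at 489, 491 and 507 CPM in Vector, 517, 498 and 490 in WT, and 399, 399 and 385 in NLS Mut. As for LAMA5, the NLS Mut libraries were below all others and the other groups overlapped. The log2 fold change was 0.35 in WT against NLS Mut (SE 0.05, interval 0.25 to 0.45, edgeR adjusted p = 0.00032), a level 27.2% higher in WT. It was -0.33 in NLS Mut against Vector (SE 0.05, -0.43 to -0.23, edgeR adjusted p = 0.00042) and 0.02 in WT against Vector (-0.08 to 0.12, edgeR adjusted p = 0.93). The pseudogene LAMB2P1 next to the gene had 16 to 53 reads, equal to 0.157% to 0.539% of the LAMB2 count, and reads that match both places alike are in neither count.

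LAMB3 (ENSG00000196878), which encodes the epithelial chain β3, showed another order of groups. It was at 646, 701 and 717 CPM in Vector, 604, 636 and 620 in WT, and 614, 607 and 614 in NLS Mut. WT and NLS Mut lay below every Vector library and overlapped with each other, in values not corrected for base composition. The log2 fold change was -0.15 in WT against Vector (SE 0.05, edgeR adjusted p = 0.19), -0.17 in NLS Mut against Vector (SE 0.05, edgeR adjusted p = 0.11) and 0.02 in WT against NLS Mut (interval -0.08 to 0.12). None of these was called in edgeR, and DESeq2 called NLS Mut against Vector, with an adjusted p of 0.023.

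LAMB1 (ENSG00000091136), the β chain of laminin-111 and laminin-511, was the scarcest of the detected chains. It was at 20, 15.2 and 14.9 CPM in Vector, 21.8, 20.1 and 21.1 in WT, and 19.7, 18.6 and 19.1 in NLS Mut. Vector library 1 stood with WT and NLS Mut and the other Vector libraries lay below. The log2 fold change of WT against Vector was 0.33 (SE 0.12, interval 0.08 to 0.58, edgeR adjusted p = 0.25), and that of WT against NLS Mut 0.13 (-0.12 to 0.38). Without Vector library 1, LAMB1, LAMC1 and LAMB3 passed the threshold in WT against Vector, LAMB1 at 0.48, LAMC1 at 0.19 and LAMB3 at -0.20. LAMB1 also shares 7932 bases with DLD, a mitochondrial enzyme gene on the other strand. Of the reads over LAMB1, which can include reads of DLD, 4.43% to 12.9% were left out of its count.

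LAMC1 (ENSG00000135862) encodes γ1, the γ chain of all 4 detected trimers, and spans chr1:183023460-183145592 on the plus strand. It was at 555, 511 and 504 CPM in Vector, 604, 551 and 582 in WT, and 493, 497 and 520 in NLS Mut. The WT libraries were above all NLS Mut libraries, and the lowest WT library was below the highest Vector library. In WT against NLS Mut the log2 fold change was 0.20 (SE 0.05, interval 0.09 to 0.31, edgeR adjusted p = 0.068), short of the threshold. It passed in DESeq2 (adjusted p = 0.011) and with the replicate number as a block (edgeR adjusted p = 0.043), with a log2 fold change of 0.21 and 0.20.

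**Figure D2:**
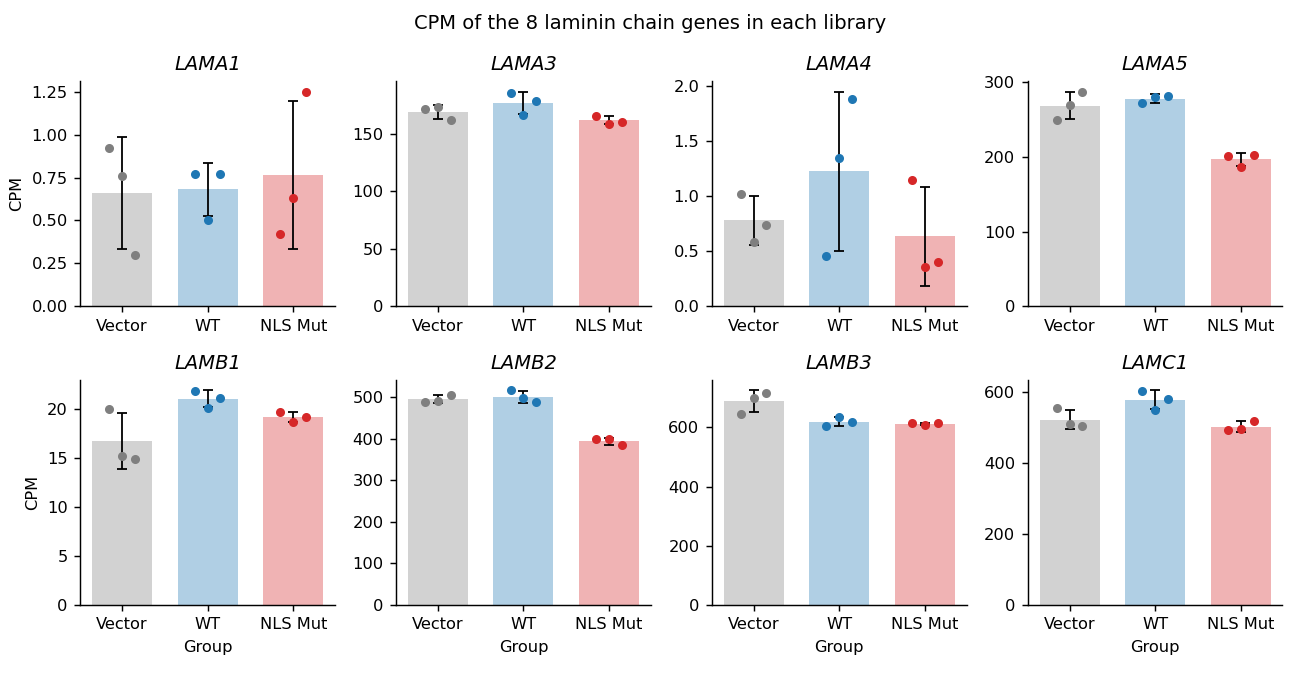
CPM of the 8 laminin chain genes by group, each panel with its own linear axis from 0, with bars for the mean, error bars for the SD (n = 3) and 1 point per library. The NLS Mut points of LAMA5 (187 to 203) and LAMB2 (385 to 399) lie below all Vector and WT points, and the groups overlap for LAMA1 and LAMA4.

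Over the 8 genes, the median log2 fold change was 0.17 in WT against NLS Mut, 0.06 in WT against Vector and -0.12 in NLS Mut against Vector, beside -0.01, 0.00 and 0.00 over all genes tested. The 8 estimates were positive for 7 genes in WT against NLS Mut, LAMA1 being the exception. In WT against Vector edgeR and DESeq2 called 0 of the 8 genes, and 3 had an unadjusted edgeR p under 0.05: LAMB1, LAMB3 and LAMC1.

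**Figure D3:**
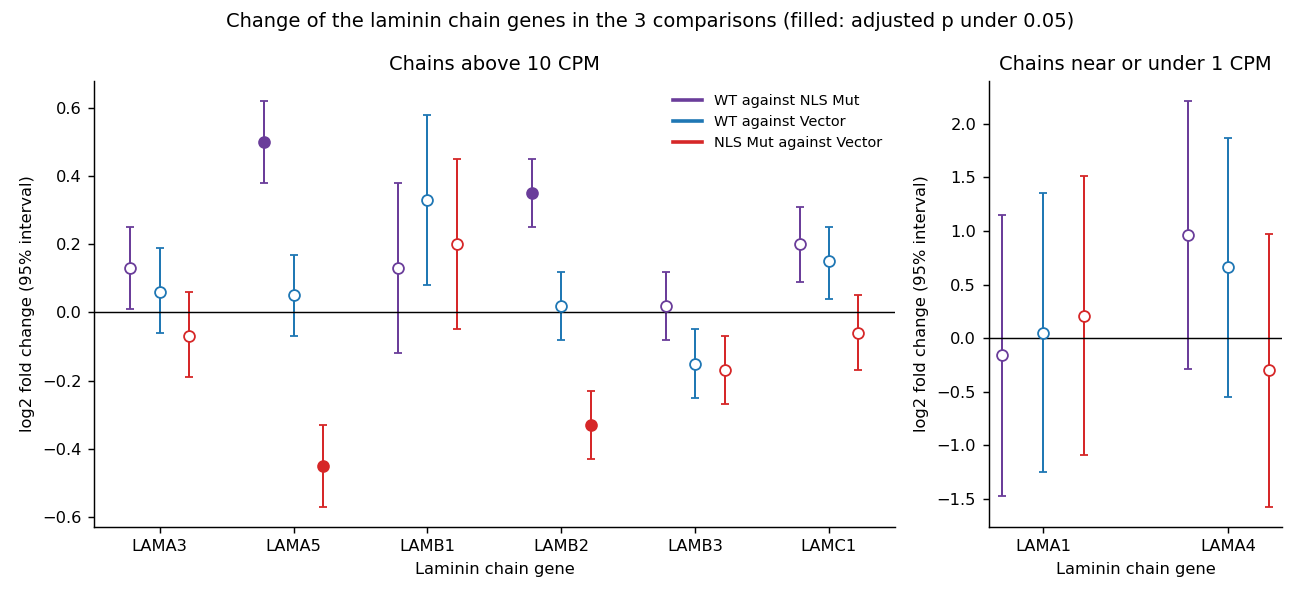
Log2 fold change of each laminin chain gene in the 3 comparisons, with 95% intervals, filled where the edgeR adjusted p was under 0.05. The left and right panels have different vertical scales; LAMA5 (0.50 and -0.45) and LAMB2 (0.35 and -0.33) are the filled points, and the intervals of LAMA1 and LAMA4 on the right span more than the whole left panel.

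The mix of chains within the α and the β class followed from these levels. LAMA5 made up 61.5% ± 2.40 of α chain CPM per kilobase in Vector, 61.2% ± 1.61 in WT and 55.1% ± 0.847 in NLS Mut (SD, n = 3), and LAMA3 37.8% ± 2.35, 37.9% ± 1.61 and 44.2% ± 0.818. The LAMA5 to LAMA3 ratio was 1.49 to 1.82 in Vector, 1.51 to 1.73 in WT and 1.21 to 1.29 in NLS Mut, so the NLS Mut libraries stood apart. Both the shares and this ratio rest on the length given to LAMA3: per kilobase of its short transcript, LAMA5 was the smaller part, with 38.5% ± 2.41, 38.2% ± 1.61 and 32.4% ± 0.745, and the ratio was 0.574 to 0.702, 0.582 to 0.668 and 0.466 to 0.499, NLS Mut again standing apart. The ratio is set within a library and does not depend on how libraries were scaled. It was not corrected for base composition, which differs between LAMA5 (66.4% G or C) and LAMA3 (50.7%). Among β chains LAMB2 had 32.7% ± 0.868 in Vector, 35.1% ± 1.09 in WT and 30.2% ± 0.510 in NLS Mut, and LAMB3 took nearly all of the rest. The LAMB3 to LAMB2 ratio was 1.93 to 2.09 in Vector, 1.71 to 1.87 in WT and 2.23 to 2.33 in NLS Mut, with no overlap between the groups. The summed α chain level was 31.8 ± 0.551 CPM per kilobase in WT and 25.0 ± 0.822 in NLS Mut.

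**Figure D4:**
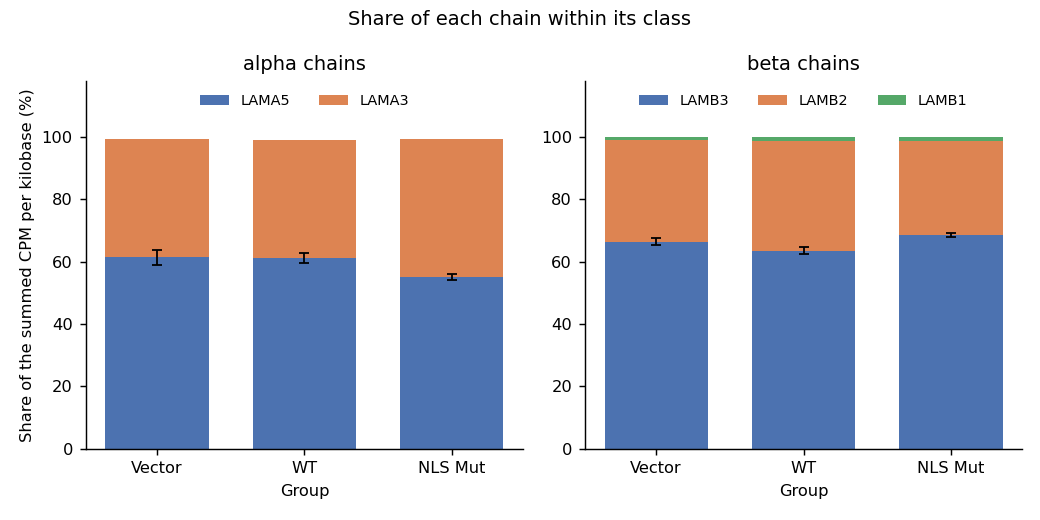
Share of each chain in the summed CPM per kilobase of its class (percent, linear axis from 0), as stacked group means with the SD of the lowest segment (n = 3). LAMA5 is at 61.2% in WT and 55.1% in NLS Mut; the α bars stop short of the whole by the shares of LAMA1, LAMA2 and LAMA4, each under 0.4%, and with the short LAMA3 transcript as its length LAMA5 would be at 38.2% and 32.4%.

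Libraries also differed in how counts depended on base composition. The slope on GC was taken for the log2 CPM of each library less the mean over all libraries. Per 10 points of GC it was 0.0975 and 0.110 in Vector libraries 2 and 3 and -0.0692 to 0.0331 in the others. The exons of LAMA5 were 66.4% and those of LAMB2 60.3% G or C, the highest among the 8 genes. With GC and length corrected, the log2 fold changes in WT against NLS Mut were 0.47 for LAMA5 and 0.33 for LAMB2. In NLS Mut against Vector they shrank to -0.30 and -0.22, still called with adjusted p of 0.00012 and 0.0063, and LAMA5 in WT against Vector was 0.17 (adjusted p = 0.054). LAMB3, whose exons were 58.9% G or C, went from -0.15 to -0.07 in WT against Vector (edgeR adjusted p = 0.54).

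The genes whose log2 CPM followed LAMA5 most closely over the 9 libraries, of 12626 compared, were GABARAPL2 (Pearson r = 0.989), FBLN2 (r = 0.976) and CX3CL1 (r = 0.972), and LAMB2 stood at rank 6 (r = 0.955). Those closest to LAMB2 were AQP3 (r = 0.981), CALCOCO1 (r = 0.977) and CAPN5 (r = 0.975). These r values describe points that fall into 3 groups and share libraries, so groups alone can set them. LAMA5 and LAMB1, both chains of laminin-511, had an r of -0.138, to which the same limit applies.

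Receptors for laminin were tested next. All 14 passed the filter on low counts, and 2 were called higher in WT against NLS Mut, 2 lower in NLS Mut against Vector, and none in WT against Vector, where DESeq2 called 1 and 5 had an unadjusted edgeR p under 0.05. Of all genes tested, 0.300% were called higher in the first of these comparisons and 0.499% lower in the second. The counts over both directions were 4 in WT against NLS Mut, 3 in WT against Vector and 4 in NLS Mut against Vector without Vector replicate 1, and 1, 0 and 0 without NLS Mut replicate 2. ITGB4, the integrin β4 chain of the laminin receptor in hemidesmosomes, was at 160 ± 6.23 CPM in Vector, 180 ± 6.79 in WT and 131 ± 5.81 in NLS Mut (SD, n = 3). Its log2 fold change was 0.46 (SE 0.06, edgeR adjusted p = 0.00012) in WT against NLS Mut and -0.29 (SE 0.06, edgeR adjusted p = 0.018) in NLS Mut against Vector. BCAM, the Lutheran glycoprotein that binds the α5 chain, was 0.31 higher in WT than NLS Mut (edgeR adjusted p = 0.047) and had -0.29 in NLS Mut against Vector (edgeR adjusted p = 0.046), calls near the threshold that held in 14 and 12 of 20 alternative fits. The more abundant receptors were not called in the main edgeR fit in any comparison: RPSA, ITGB1, ITGA3, DAG1 and SDC4 had log2 fold changes between -0.05 and 0.14 in WT against NLS Mut. The median over the receptors was 0.11 in WT against NLS Mut and -0.04 in NLS Mut against Vector.

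Of 21 partners of laminin in the basement membrane, 16 were tested. In WT against NLS Mut 4 were called higher and none lower, in NLS Mut against Vector 5 lower and none higher, and in WT against Vector none, with 1 call in DESeq2 and 2 at an unadjusted edgeR p under 0.05. The same shares of all genes, 0.300% and 0.499%, stand beside these counts. Leaving out 1 library moved the counts to between 3 and 4, between 1 and 6, and between 0 and 2, the 1 being without NLS Mut replicate 2 and the 6 and the 2 without Vector replicate 1. HSPG2, which encodes perlecan, was at 260 ± 4.88 CPM in Vector, 275 ± 6.42 in WT and 213 ± 5.73 in NLS Mut, with a log2 fold change of 0.37 in WT against NLS Mut (SE 0.05, edgeR adjusted p = 0.00039). COL17A1, the transmembrane collagen of hemidesmosomes, had 0.39 (SE 0.08, adjusted p = 0.024), FBLN2, the fibulin that binds laminin short arms, 0.34 (SE 0.06, adjusted p = 0.0023), and SPARC, a collagen-binding matricellular protein, 0.30 (SE 0.05, adjusted p = 0.003). In NLS Mut against Vector the called genes were COL17A1 (-0.46), COL7A1 of anchoring fibrils (-0.39), HSPG2 (-0.29), FBLN2 (-0.28) and AGRN, the heparan sulfate proteoglycan agrin (-0.26). The collagen IV genes and the nidogens, which complete a basement membrane, were at 6.42 CPM or less in every group mean. The median of the partners was 0.25 in WT against NLS Mut and -0.20 in NLS Mut against Vector.

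Of 8 hemidesmosome genes, 7 were tested and the same COL17A1 and ITGB4 were the ones called. Both were called higher in WT against NLS Mut and lower in NLS Mut against Vector, and none in WT against Vector. PLEC, DST, ITGA6 and CD151 were not called in any comparison. Of 12 genes for laminin processing and for the glycosylation of dystroglycan, 11 were tested, and BMP1, the protease that trims laminin chains, was called lower in NLS Mut against Vector (-0.31, SE 0.07, edgeR adjusted p = 0.02). Of 6 netrins, which share the laminin domains, 5 were tested and none was called. Beside the counts of these lists, 0.300% of all genes tested were called higher in WT against NLS Mut. In NLS Mut against Vector 0.499% were called lower, and in WT against Vector 0.214% were called higher and 0.343% lower. With GC and length corrected, the NLS Mut against Vector calls of ITGB4, BCAM, HSPG2, AGRN, FBLN2 and BMP1 were lost, at values from -0.19 to -0.10. In that comparison SPARC was gained (-0.21), and the calls of COL7A1 and COL17A1 held. ITGB1 (0.14) and ITGB4 (0.29) passed in WT against Vector. In WT against NLS Mut every call among these genes held. There ITGB1 (0.16, edgeR adjusted p = 0.013) and BMP1 (0.25, edgeR adjusted p = 0.006) were gained. Over all 20 alternatives, ITGB4, HSPG2, SPARC and FBLN2 were called each time in WT against NLS Mut and COL17A1 16 times, and in NLS Mut against Vector COL7A1 was called each time, COL17A1 19 times, HSPG2 17, ITGB4 and BMP1 14, and AGRN and FBLN2 13 times.

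**Figure D5:**
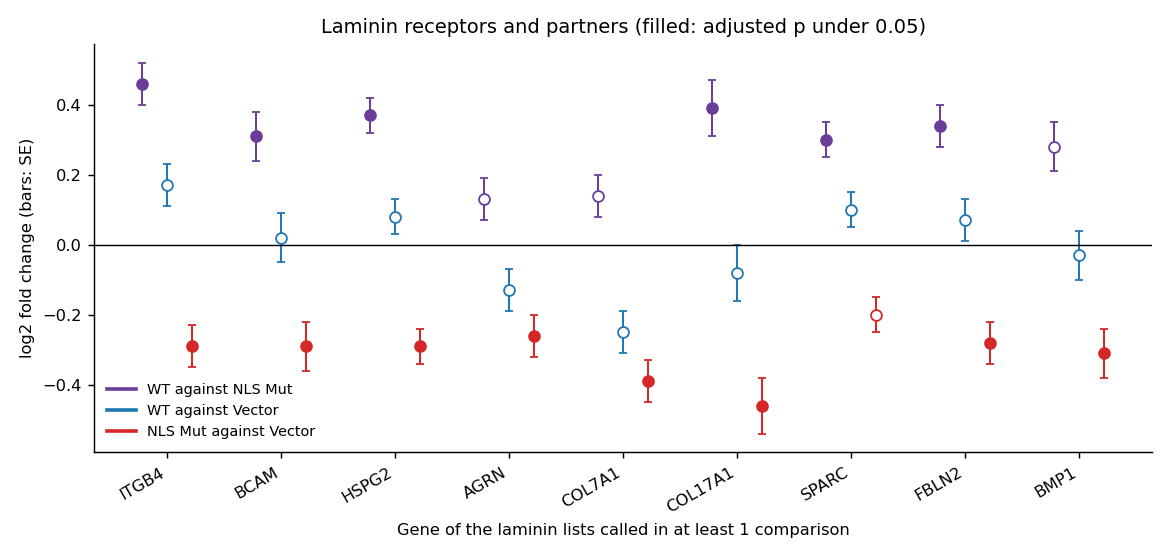
Log2 fold change of the 9 receptor and partner genes called in at least 1 comparison, with SE bars, filled where the edgeR adjusted p was under 0.05. The WT against NLS Mut points lie between 0.13 and 0.46, and the NLS Mut against Vector points between -0.46 and -0.20.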

How the data were processed

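RNA-Seq was performed by the authors on H1975 cells in 9 libraries. Per the processing notes of the submitters, reads were handled with STAR 2.7.9a and DESeq2 1.36.0 on GRCh38.p14. Each library has a deposited table of raw counts by gene, in 3 count columns (unstranded and each strand). The annotation release was not given in the sources used here. The strand columns split evenly (50.6% to 51.9% on 1 strand), so the unstranded column was used. The 4 summary lines, 27.6% to 30.7% of all reads tallied in a library, were left out. Intervals are at 95% and reflect the spread between libraries.

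Counts were tested with edgeR 4.0.16 (filterByExpr, TMM scaling with factors of 0.989 to 1.02, quasi-likelihood fit of all 9 libraries with 1 coefficient per group). P-values were adjusted by Benjamini-Hochberg over 18653 genes. The median biological coefficient of variation was 11.2%. CPM used the TMM-scaled library sizes. Exon lengths, GC and coordinates came from the GENCODE 29 annotation of GRCh38, which held 58342 of the 61544 genes, and promoter windows from RefSeq on GRCh38.p14. A trimer was counted where each chain was at 1 CPM per kilobase or more in all 9 libraries. Related genes were named where called in any comparison. For each chain called between WT and NLS Mut, the 3 protein-coding genes of highest Pearson correlation with a mean of 1 CPM or more were named. Some items are not reported here. The members and lists were chosen with earlier results of these data known. Replicates of a group differed by more than sampling noise (chi-square per degree of freedom 3.55 to 12.7). Alternatives were DESeq2 1.42.0, other scalings and filters, both strands summed, only the groups compared, a replicate block, a GC and length correction (loess, span 0.3), and leaving out each library.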

Additional observations from a re-analysis of the deposited data

How the results depend on the processing

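LAMA5 and LAMB2 were called, with the same direction, in each of 20 alternative fits in both WT against NLS Mut and NLS Mut against Vector. LAMA5 ranged from 0.41 to 0.53 and from -0.51 to -0.30, LAMB2 from 0.33 to 0.37 and from -0.35 to -0.22. In WT against Vector the count of 0 calls became 1 (LAMA5) with the GC and length correction and replicate block together, and ranged from 0 to 3 over fits without 1 library, the 3 being without Vector replicate 1. LAMC1 in WT against NLS Mut was called in 10 of 20 alternatives (0.18 to 0.25), and LAMB3 in NLS Mut against Vector in 3 of 20 (-0.22 to -0.07). The replicate numbers did not pair the libraries (correlations of same-numbered libraries -0.0237 to 0.0588). With the replicate block 3, 0 and 2 of the 8 genes were called in WT against NLS Mut, WT against Vector and NLS Mut against Vector, LAMC1 being the gene added.

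Values near 0 changed sign in WT against Vector when scaled by library size alone (LAMB2 -0.01) and without 1 library (LAMA5 -0.00 to 0.10, LAMB2 -0.00 to 0.04, LAMA1 -0.31 to 0.35). So did LAMA1 in WT against NLS Mut (-0.44 to 0.36) and in NLS Mut against Vector (-0.32 to 0.51), and LAMA4 in NLS Mut against Vector (-1.05 to 0.01). The cause was not tested. The order of the 8 chains was the same by longest coding transcript. TPM only rescales CPM per kilobase within each library, so it could not test the order. With the short LAMA3 form 6 of 8 ranks were kept, and the LAMA5 share of α chains became 38.5% in Vector, 38.2% in WT and 32.4% in NLS Mut. That length, and DESeq2 on only the groups compared, were chosen after seeing the data. A detection minimum of 0.5 gave 4 trimers and of 2 gave 2. LAMA1 and LAMA4 had no fit where each library had to reach 1 CPM. Depth limits the low chains: LAMA1, LAMA2 and LAMA4 had at most 39 reads in a library.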
